A study of Vitis vinifera with 12 samples.

Results

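The gained CARPO events are binding events that were listed for the grapevine (Vitis vinifera) factor CARPO (NAC60) in the library titled 1000, but not in the list titled 500, on leaf DNA. They were chosen by measured positions: an event of the list labelled 1000 was kept when no event of the CARPO leaf list labelled 500 lay within 100 bp, and events on the sequence named chr00 were left out. Of 8887 events labelled 1000 on the 19 numbered chromosomes, 2130 were gained in this sense (24.0%, exact 95% interval 23.1% to 24.9%). The other 6757 had a CARPO partner labelled 500 and are called recurring. The CARPO leaf list labelled 500 was the longer of the 2, with 14344 events on numbered chromosomes. The word gained therefore does not mean that more events were listed at 1000. The 7 event lists of the series held 44889 events in all.

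The events came from DNA affinity purification sequencing (DAP-seq), in which a tagged factor made in a cell-free system retains fragments of purified genomic DNA. CARPO, NAC33 and NAC03 carried a HALO tag and were made in rabbit reticulocyte lysate, and all DNA was from the cultivar Syrah, with plant material pooled from cuttings. The growth text names leaf for the berry samples too, so the DNA is given as the source label states it. The lists are CARPO labelled 1000 on young leaf DNA, CARPO labelled 500 on young leaf DNA and on berry DNA, NAC33 in the same 3 settings, and NAC03 labelled 500 on leaf DNA. The titles give 500 and 1000 without a unit. HALO-GST control samples were not analysed here. The DNA carries no chromatin proteins, so an event shows binding to naked DNA and not occupancy in a leaf or berry cell. A single list stands behind each setting and events of a list are not replicates, so differences are given with exact Clopper-Pearson intervals for counting error and without a test. The CARPO and NAC33 leaf lists labelled 500 were each called from 2 libraries and the other lists from 1, so the title number and the number of libraries cannot be told apart. Read depth is unknown, and an event missing from a list may lie below its threshold.

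NAC proteins are a plant-specific family of transcription factors that bind DNA through a conserved N-terminal domain, usually as dimers, while a variable C-terminal part regulates transcription. In many plants members of the family act in senescence, stress responses and fruit ripening. In grapevine, CARPO has been linked to the passage of organs to the mature phase, and NAC33 to the loss of chlorophyll and the end of vegetative growth. Because relatives in a family can share DNA preferences, events of NAC33 and NAC03 at the places gained by CARPO are described beside the berry list of CARPO itself.

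Most gained events were weak. Event strength is the authors' deposited value, read from a column without a header, and was compared or ranked only within 1 list at a time, here the CARPO list labelled 1000. It comes from a list that the choice of events used, so its values are a description. Strength ranged from 11.0 to 1824 over the gained events, with a median of 17.5 and quartiles of 14.1 and 22.0. Recurring events ranged from 11.0 to 13132, with a median of 31.0 and quartiles of 21.0 and 57.0. The ranges overlapped from the lowest value up to 1824, and the gained median lay below the lower quartile of the recurring events.

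The same held for the deposited q-values. The median −log10 q-value was 2.85 for gained and 5.62 for recurring events. A −log10 q-value below 3, close to the deposited limit, was found for 1157 gained events (54.3%) and for 1342 recurring events (19.9%). At 10 or more there were 58 gained events (2.72%) and 2053 recurring events (30.4%).

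When the list was divided into 5 classes of strength, gained events made up 2.12% of the strongest class (37 of 1745) and 55.0% of the weakest class (975 of 1773). The classes between held 7.86%, 19.8% and 34.8%. The order was therefore the same at every step, from the strongest class to the weakest. A few gained events stood at the top of the list nevertheless: 4 were among the 100 strongest events on numbered chromosomes and 8 among the strongest 500.

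**Figure D1:**
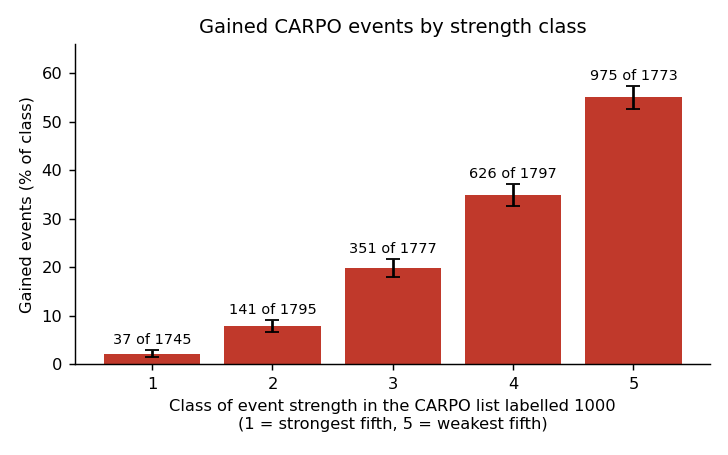
Share of gained events (percent of the CARPO events labelled 1000 on numbered chromosomes, vertical axis) in 5 classes of event strength (horizontal axis, class 1 strongest). Bars are shares, error bars exact 95% intervals and the text gives counts, with 2.12% in class 1 and 55.0% in class 5.

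Few gained places had a listed event within 100 bp in any other list. Of the 2130 gained events, 1884 (88.5%) had no event within 100 bp in any of the 5 lists that the rule did not use, against 2933 of the 6757 recurring events (43.4%). A partner in exactly 1 of these lists was found for 193 gained events, in 2 lists for 39, in 3 lists for 12 and in 4 lists for 2. No gained event had a partner in all 5, whereas 93 recurring events did. The 246 gained events with a partner had a median strength of 18.0 and the 1884 without one a median of 17.4, so both kinds were weak.

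CARPO on berry DNA, the same factor with DNA of another organ, had the highest share of the 5 lists at their full lengths. A berry event lay within 100 bp of 125 gained events (5.87%, 95% interval 4.91% to 6.95%). Over all CARPO events labelled 1000 on numbered chromosomes the share was 33.1%, and over the recurring events it was 41.7% (40.5% to 42.9%). Of these 125 gained events, 107 had no partner in the other 4 lists, and the median strength of those 107 was 22.0. Among gained events above the median strength of the list the berry share was 12.6%. In strength classes 1 and 2 it was 18.9% and 14.2% of gained events, against 78.5% and 43.2% of recurring events. With every partner list cut to its strongest 731 events the berry share of gained events was 0.188%. NAC33 labelled 1000 then had the highest share, 0.516%. Seen from the berry list, 124 of its 3619 events on numbered chromosomes lay at a gained event (3.43%). Of the 499 berry events with no CARPO leaf partner labelled 500, 114 lay at a gained event (22.8%). Gained events were chosen by that same absence, so most of their berry partners fall in this subset by the rule. The matching share was 4.60% in NAC03, 2.01% in NAC33 labelled 1000, 1.21% in NAC33 berry and 0.648% in NAC33 labelled 500.

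NAC03 shared few of the gained places. A NAC03 event lay within 100 bp of 53 gained events (2.49%, 1.87% to 3.24%), against 25.5% of all CARPO events labelled 1000 and 32.7% (31.6% to 33.8%) of the recurring events. In the NAC03 list these places made up 1.30% of 4080 events on numbered chromosomes. The difference from the recurring events was -30.2 percentage points, next to -35.8 points for CARPO on berry DNA.

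NAC33 had 3 lists, and the one labelled 1000 shared the largest number of gained places among them. It had an event within 100 bp of 95 gained events (4.46%, 3.62% to 5.42%), against 13.6% of all CARPO events labelled 1000 and 16.5% (15.6% to 17.4%) of the recurring events. The NAC33 leaf list labelled 500 had one at 35 gained events (1.64%, 1.15% to 2.28%), against a background of 9.41% and 11.9% of the recurring events. NAC33 on berry DNA, the shortest list with 731 events, had one at 7 gained events (0.329%, 0.132% to 0.676%), against a background of 1.65%. All 3 shares of gained events were below their backgrounds.

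**Figure D2:**
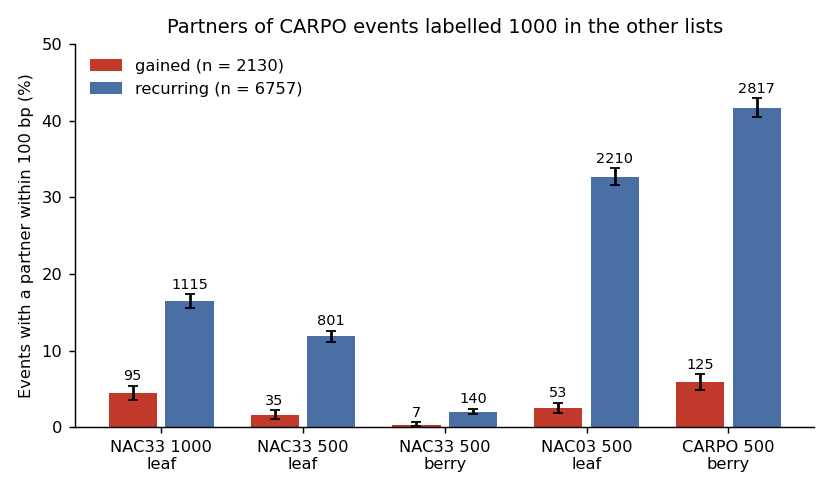
Percent of gained (n = 2130) and recurring (n = 6757) CARPO events labelled 1000 with an event within 100 bp in each of 5 lists (horizontal axis). Bars are shares, error bars exact 95% intervals and numbers counts; gained events lay lower in all 5 lists, from 0.329% in NAC33 berry to 5.87% in CARPO berry.

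The partners in the 2 NAC33 leaf lists were divided differently between gained and recurring events. Among the 95 gained events with a NAC33 partner labelled 1000, 72 had no NAC33 partner labelled 500 (75.8%, 65.9% to 84.0%). Among the 1115 recurring events with a NAC33 partner labelled 1000, 520 had none labelled 500 (46.6%, 43.7% to 49.6%). A NAC33 partner labelled 500 but none labelled 1000 was found for 12 gained and 206 recurring events. At 72 gained places both factors thus had a leaf event labelled 1000 and lacked one labelled 500. The difference in these shares was not tested, and recurring events were required to have an event labelled 500 of CARPO.

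At 54 of those places no list labelled 500 had an event, neither NAC03 nor the berry lists. The median strength there was 16.0 in the CARPO list, and 23 of the 54 pairs (42.6%) were called at the same base. Such same-base pairs were not particular to these places. They were also found for 262 of the 1115 recurring events with a NAC33 partner labelled 1000 (23.5%). One of the 54 gained events was the strongest of all, with a strength of 1824. The next strongest of the 54 had 47.1.

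The lower partner share of gained events was also seen within strength classes, with 1 exception. Strength was not matched within a class, and class 1 spanned values from 56.0 to 13132. In class 1, 18.9% of 37 gained events (7.96% to 35.2%) and 78.5% of 1708 recurring events (76.4% to 80.4%) had a CARPO berry partner. In class 5 the shares were 3.90% of 975 (2.77% to 5.31%) and 14.0% of 798 (11.7% to 16.6%). For NAC03 they were 10.8% against 55.6% in class 1 and 3.18% against 18.5% in class 5. For NAC33 labelled 1000 they were 10.8% against 26.8% in class 1, where the intervals overlapped (3.03% to 25.4% and 24.7% to 29.0%), and 5.64% against 9.90% in class 5. For NAC33 on berry DNA the gained share in class 1, 5.41%, was above the recurring share of 4.04%, but it rested on 2 of 37 events. The gained and recurring intervals of that list overlapped in every class. Its gained events with a partner numbered 2, 0, 1, 0 and 4 from class 1 to class 5, too few to compare within classes.

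Among recurring events the NAC33 share labelled 1000 was lower in each weaker class. Among gained events it was 10.8% in class 1, 5.67% in class 2 (2.48% to 10.9%), 2.85% in class 3, 2.88% in class 4 and 5.64% (4.28% to 7.28%) in class 5. The share in class 5 was thus close to that in class 2. NAC33 labelled 500 had 0.855%, 0.958% and 2.36% in classes 3 to 5, and NAC03 had 1.99%, 1.44% and 3.18%. CARPO on berry DNA had 9.40%, 4.31% and 3.90%, the lowest in class 5. These differences between classes were not tested. The intervals of classes 4 and 5 overlapped for NAC33 labelled 1000 (1.71% to 4.51% in class 4), for NAC33 labelled 500 (0.353% to 2.07% and 1.50% to 3.52%) and for NAC03 (0.659% to 2.71% and 2.17% to 4.48%).

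**Figure D3:**
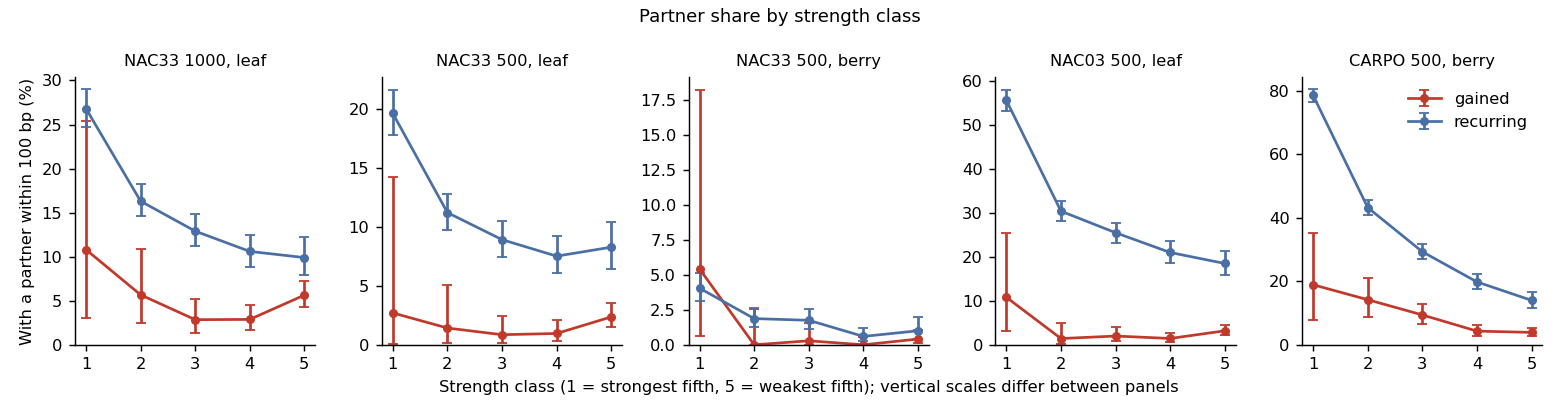
Percent of gained and recurring events with a partner within 100 bp (vertical axes, scales differ) by strength class (horizontal axis, class 1 strongest), 1 panel per list. Points are shares and error bars exact 95% intervals. The gained share lay below the recurring one in every panel and class except class 1 of NAC33 berry. In the NAC33 berry panel the intervals overlapped in every class.

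Where a partner existed, it often lay at the same few base distances as at recurring events. Of the 95 partners in NAC33 labelled 1000, 37 (38.9%) lay at 0 bp, against 262 of 1115 (23.5%) at recurring events. Of the 53 NAC03 partners, 32 (60.4%) lay 1 bp away, against 55.6% at recurring events. Of the 125 CARPO berry partners, 44 (35.2%) lay 1 bp away, against 40.6%. Of the 35 NAC33 partners labelled 500, 10 (28.6%) lay 2 bp away, against 24.0%. For NAC33 on berry DNA, 1 of 7 partners (14.3%) lay 1 bp away, against 32.1% at recurring events, and the median distances were 41.0 and 13.5 bp. The distance given differs between lists and was the most frequent of 0, 1 and 2 bp at recurring events. At a common limit of 3 bp the gained and recurring shares were 42.1% and 30.8% in NAC33 labelled 1000. They were 28.6% and 26.2% in NAC33 labelled 500, and 64.2% and 63.4% in NAC03. In CARPO berry they were 43.2% and 48.6%, and in NAC33 berry 14.3% and 36.4%. None of these differences was tested.

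The partner events stood lower in 4 of the 5 lists than the partners of recurring events did. Ranked within its own list, with 100% for the weakest event, the median partner of a gained event stood at 76.8% in CARPO berry, 63.1% in NAC03 and 54.6% in NAC33 labelled 1000. The medians for partners of recurring events were 38.5%, 37.3% and 31.2%. In NAC33 labelled 500 the 2 medians were 42.0% and 29.2%. In NAC33 berry both were 36.0%, with 7 gained events.

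The strongest gained event lay on chromosome 2 at 11552351 to 11552551. It ranked 16 in the CARPO list labelled 1000, with a strength of 1824 and a −log10 q-value of 126.16. NAC33 labelled 1000 had an event at the same base, 11552451, which ranked 4 of 6298 with a strength of 1503.9. Thus both leaf lists labelled 1000 placed it near their top, and no list labelled 500 had an event within 100 bp. The CARPO leaf list labelled 500 had a strong event 783 bp away at 11553234 (strength 2023.3, rank 23). NAC03 (549.3, rank 20) and CARPO berry (1269.3, rank 21) had theirs within 2 bp of that one, at 784 and 785 bp from the gained event. The nearest other event of the CARPO list labelled 1000 lay 313766 bp away, so that list had none at the place shared by those 3.

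The second strongest, on chromosome 15 at 4089800 to 4090000, ranked 29 with a strength of 1050. Its −log10 p-value of 226.53 was the highest of all gained events. NAC03 had an event 3 bp away (strength 272, rank 45 of 4277) and CARPO berry one 4 bp away (638, rank 40 of 3757). The nearest CARPO leaf event labelled 500 lay 75382 bp away, and the nearest NAC33 event of any list 116640 bp away. This place was thus among the strong events of CARPO labelled 1000, CARPO berry and NAC03, and was missing from the CARPO leaf list made from 2 libraries.

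A similar place with NAC03 lay on chromosome 7 at 23534415 to 23534615 (strength 502, rank 87), where the NAC03 event 17 bp away ranked 39 with 345.7. Another, on chromosome 8 at 1540230 to 1540430, had a strength of 248 (rank 250) and a NAC03 event at 1 bp that ranked 48 with 245.8. At the latter place NAC33 labelled 1000 also had an event, 174 bp away, which ranked 33 with 294.2. Neither place had a berry partner.

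The strongest gained event without a partner in any other list lay on chromosome 5 at 22403955 to 22404155, with a strength of 458 (rank 97). Its nearest CARPO events labelled 500 were 5929 bp away on leaf DNA and 5927 bp away on berry DNA. On chromosome 6, an event at 15142964 to 15143164 (strength 270, rank 219) also had no partner, and another event of its own list lay 80 bp away.

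On chromosome 10, gained events at 16173982 (strength 104, rank 863) and 16176119 (159, rank 472) lay close together. The first had NAC33 partners labelled 1000 at 49 bp (100.8, rank 112) and on berry DNA at 50 bp (270.9, rank 35 of 731). The second had no partner in any list. The nearest CARPO leaf event labelled 500 was 44778 bp from the second.

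The 2 remaining events of the strongest 10 lay on chromosomes 1 and 6. The event at 3636257 on chromosome 1 (strength 264, rank 225) had no partner, but CARPO labelled 500 on leaf DNA lay 116 bp away, CARPO berry 117 bp and NAC33 labelled 1000 118 bp. The events of these 3 lists lay within 2 bp of each other, next to the gained one. The event at 5472381 on chromosome 6 (108, rank 824) had berry partners of CARPO at 14 bp (48.8, rank 247) and of NAC33 at 39 bp (43.0, rank 82).

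**Figure D4:**
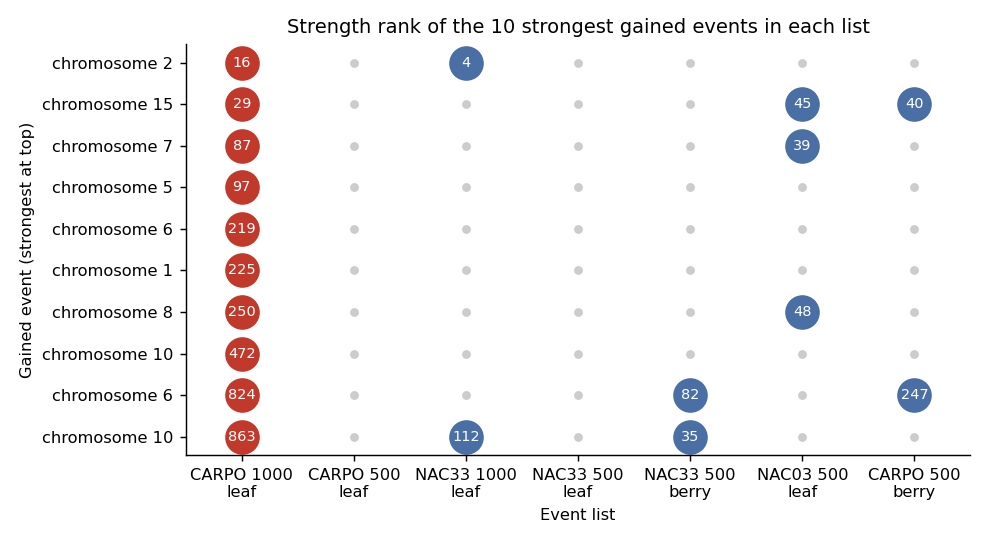
The 10 strongest gained events (rows) in the 7 lists (columns). A coloured disc with a number gives the strength rank of the event within 100 bp in that list and a grey dot marks a list with none; the CARPO 500 leaf column is empty by the choice of events, and NAC03 has 3 discs with ranks of 39 to 48.

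Both gained events with partners in 4 other lists were weak. Those named with partners in 3 ranged from 22.0 to 66.7 in strength, but they were picked as the strongest of 12. Of these 12, 9 had the combination NAC33 labelled 1000, NAC33 labelled 500 and NAC03, with a median strength of 16.0. The 2 gained events with partners in 4 lists lay on chromosome 18 at 1193623 (strength 14.5, rank 8228) and on chromosome 9 at 9824722 (14.3, rank 8251). NAC03 had an event 1 bp away from each, with ranks of 2290 and 3453. NAC33 events lay 42 to 69 bp from the first in all 3 NAC33 lists. The second had NAC33 events at 44 and 55 bp in both leaf lists, and CARPO berry at 1 bp. The NAC33 events labelled 1000 ranked 733 and 640 of 6298, in the upper part of that list, while both gained events stood near the end of theirs.

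Partners in 3 lists lay at 0 to 2 bp in the following cases. On chromosome 14 the event at 11517731 (66.7, rank 1495) had NAC33 at 0 bp labelled 1000 and at 2 bp labelled 500, and CARPO berry at 1 bp. On chromosome 1 the event at 2545802 (33.0, rank 3383) had NAC33 at 0 and 2 bp and NAC03 at 1 bp. On chromosome 8 the event at 9936453 (22.0, rank 5499) had the same 3 partners at the same distances.

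Some gained events lay next to a CARPO event labelled 500, and most lay over 1000 bp from any. The nearest CARPO leaf event labelled 500 was a median of 7758 bp away, with quartiles of 1862 and 20055 bp and a highest value of 446005 bp. Between 101 and 150 bp there were 197 gained events (9.25%), between 151 and 250 bp 81 and between 251 and 1000 bp 146. Another 917 (43.1%) lay over 10 kb away. Median strength was 19.0 in the nearest of these classes and 17.0 from 1001 to 10000 bp. With all other lists taken into account, 534 gained events (25.1%) had no event of any other list within 10000 bp.

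**Figure D5:**
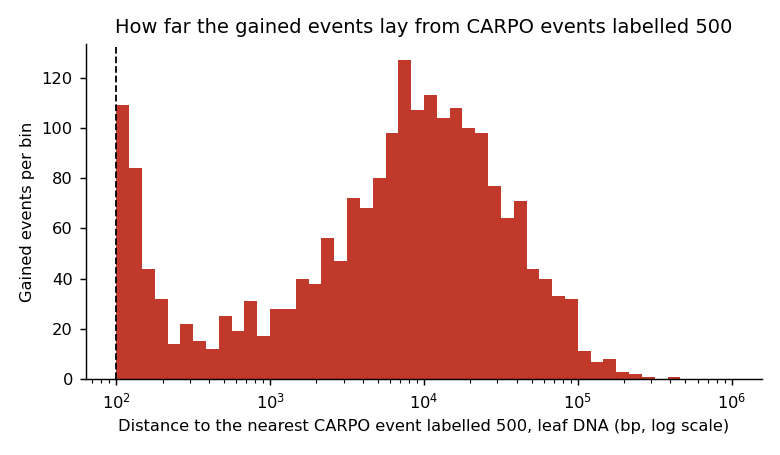
Number of gained events (vertical axis) by distance to the nearest CARPO leaf event labelled 500 (horizontal axis, bp, log scale). The dashed line marks the 100 bp limit of the rule; 197 events lay at 101 to 150 bp and 917 beyond 10 kb, with few between 251 and 1000 bp.

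Events lay directly on both sides of the 100 bp limit. Just outside it, at 101 bp, lay gained events on chromosome 7 at 20645719 (strength 47.0) and 2621183 (21.0) and on chromosome 4 at 18441518 (23.0). Just inside, at 100 bp, lay recurring events on chromosome 11 at 4036548 (56.0), chromosome 8 at 276596 (37.0) and chromosome 12 at 9751737 (18.3). Of the recurring events, 501 (7.41%) had their partner 51 to 100 bp away, while 3245 (48.0%) had it at 2 bp.

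For 278 gained events the nearest CARPO event labelled 500 lay 101 to 250 bp away. In 111 of these cases (39.9%) that neighbour had an event of its own in the list labelled 1000, so the gained event was an additional one beside it. In the other 167 (60.1%) it had none, so the list labelled 1000 had its event beside that place and not at it. The other lists more often had an event at the neighbour than at the gained base. CARPO berry had 66 at the neighbour and 19 at the gained event, NAC03 had 58 and 17, and NAC33 labelled 1000 had 25 and 15. An event within 100 bp of both was counted at both. The neighbours also stood higher in their list, at a median of 37.6% with 100% for the weakest event, while the median over all gained events was 77.6% in theirs. The part of strength in these counts was not tested.

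Partners of NAC03 and NAC33 labelled 500 were more frequent in the distance class just outside the 100 bp limit than farther from CARPO events labelled 500. NAC03 partners were found for 6.12% of the 278 gained events at 101 to 250 bp (3.60% to 9.61%) and for 1.64% of the 917 beyond 10 kb (0.918% to 2.68%). For NAC33 labelled 500 the shares were 5.04% (2.78% to 8.31%) and 0.981% (0.450% to 1.85%). For NAC33 labelled 1000 they were 5.40% (3.05% to 8.74%) and 4.58% (3.32% to 6.14%), and for CARPO berry 6.83% (4.16% to 10.5%) and 6.32% (4.84% to 8.10%). Between these nearest and farthest classes the intervals overlapped for the latter pair of lists and not for the former. From 251 to 1000 bp the shares were 2.74% (0.751% to 6.87%) for NAC03 and 1.37% (0.166% to 4.86%) for NAC33 labelled 500. Those intervals overlapped the ones at 101 to 250 bp. From 1001 to 10000 bp the shares were 2.15% and 1.27%. The classes were cut by distance to a list that the rule used. In the class at 101 to 250 bp, an event could lie within 100 bp of both the gained event and its CARPO neighbour labelled 500. The shares of that class can therefore include events of the neighbouring place, and these differences were not tested.

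Gained events were spread over all 19 chromosomes. Per Mb, up to the highest event end of each chromosome, they numbered from 3.59 on chromosome 17 to 6.26 on chromosome 8, a 1.74-fold range. Recurring events numbered from 9.91 on chromosome 16 to 21.3 on chromosome 8, a 2.15-fold range. The gained share of a chromosome's events was lowest on chromosome 17 (18.5%, 14.6% to 22.8%) and highest on chromosome 16 (31.1%, 26.2% to 36.3%). Chromosome 16 had 105 gained events of 338 and chromosome 17 had 67 of 363.

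A small part of the gained events lay next to each other. Gaps of at most 1000 bp joined gained events into 48 groups, which held 97 of the 2130 events. No such count was made for recurring events or for random places. Whether gained events lay closer together than either was therefore not tested. One group had 3 members, on chromosome 6 from 16049437 to 16049867, with strengths of 27.2 to 50.3 and no partner in the other lists. Another event of the CARPO list labelled 1000 lay within 500 bp of 234 gained events (11.0%) and of 1032 recurring events (15.3%). In windows of 1 Mb the median was 4 gained events and the highest 14, on chromosome 8 between 18 and 19 Mb, where 31 recurring events also lay. The window with the next highest number, on chromosome 13 between 28 and 29 Mb, had 13 gained and 13 recurring events.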

How the data were processed

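The 7 event lists were used as deposited by the authors, who per the series' design text called both leaf lists with 2 replicates from those replicates together. GEM, which finds binding events, is known here from the names of the deposited files alone. The submitters' processing notes name fastp 0.21.0 and Bowtie2 2.0. The genome build, the control and the filters are not given in the sources used here, and positions are printed as in the files, counted from 1. Column 5 is a deposited score of the authors and was not used further. No header names the columns: from the values, column 7 was read as event strength, column 8 as −log10 p-value (capped at 999) and column 9 as −log10 q-value.

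Positions were matched within each sequence with Python 3.11.15, numpy 2.4.6, pandas 2.3.3 and scipy 1.17.1, and matching was tested on simulated data. Strength classes were made over the whole CARPO list labelled 1000, chr00 included. Named events were the 10 strongest, the 5 with most partner lists, the strongest with a partner in each list, the strongest with none, and 3 on each side of the limit, with ties broken by strength. The events in groups and windows were chosen after their values were seen. The rule, the lists and the alternatives were chosen with earlier results of these data known. Gene positions and sequence motifs were planned but not run, because no genome of the build was at hand.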

Additional observations from a re-analysis of the deposited data

How the results depend on the processing

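The number of gained events, 2130, ranged from 1706 (limit of 1000 bp) to 2631 (50 bp) under 6 alternatives. It was 525 with −log10 q-values from 4 upwards, fewer because that threshold is stricter.

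Partner shares of gained events are given in the order NAC33 labelled 1000, NAC33 labelled 500, NAC33 berry, NAC03, CARPO berry. They were 3.19%, 0.704%, 0.0939%, 1.92% and 3.90% at 25 bp, 6.43%, 3.29%, 0.798%, 5.26% and 9.06% at 250 bp, and 6.15%, 2.91%, 0.798%, 4.88% and 8.50% with any overlap of the 201 bp intervals. At 50 bp CARPO berry gave 4.60%. Above the median strength they were 5.46%, 1.02%, 0.683%, 3.41% and 12.6%. With −log10 q-values from 4 upwards, NAC33 labelled 500 gave 1.14%, NAC03 1.71% and CARPO berry 11.0%. With each partner list cut to its strongest 731 events they were 0.516%, 0.188%, 0.329%, 0.188% and 0.188%. NAC33 berry holds 731 events and was not cut, and the other 4 shares were lower because less of those lists was used. With no CARPO event labelled 500 within 1000 bp, NAC33 labelled 500 gave 1.11%.

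Differences from recurring events (percentage points, same order) kept their sign except in class 1 of NAC33 berry, where it was 1.37 and rested on 2 events. In class 1 the others were -16.0, -16.9, -44.8 and -59.5. In class 2 CARPO berry gave -29.0. In class 3 they were -10.1, -8.05, -1.47, -23.5 and -19.9, in class 4 -7.71, -6.56, -0.598, -19.6 and -15.5, and in class 5 -4.26, -5.91, -0.592, -15.4 and -10.1. At 25 bp they were -8.32, -6.34, -1.28, -25.0 and -28.5, and at 50 bp NAC33 labelled 500 gave -8.25, NAC03 -27.9 and CARPO berry -33.4. Ranked by p-value, the gained share of the weakest class exceeded that of the strongest by 46.0 points, against 52.9 by strength. What caused these shifts was not tested here.

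No paired analysis was possible because the 2 leaf libraries labelled 500 of CARPO, and likewise those of NAC33, share 1 event list, so leaving out a replicate was not done either. Unknown depth and the lists' thresholds limit every statement on a missing partner.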

Other observations

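On the sequence named chr00, which the rule left out, the CARPO list labelled 1000 had 283 events. Of these, 76 (26.9%) had no CARPO leaf event labelled 500 within 100 bp, close to the 24.0% on the numbered chromosomes.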
